A study of Homo sapiens with 4 samples.

Results

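Genes that drive entry into mitosis, exit from it and the separation of the daughter cells were examined in KYSE410 cells, an established human cell line derived from an esophageal squamous carcinoma. The set held 47 genes, chosen by name for their roles: CDK1 with its cyclins and regulators, the transcription factors FOXM1 and MYBL2, regulators of the anaphase-promoting complex (APC/C), spindle proteins, cytokinesis proteins, condensin subunits and further proliferation genes. They were chosen with earlier results of these data known, so their shares beside those of all genes are descriptive only. All probe sets annotated with 1 gene symbol that equals a member were taken, which gave 92 of 54613 probe sets. All 47 genes, of 19775 with a probe set of their own, had at least 1 probe set past the filter on low signal. The arrays comprised 2 of cells treated with 20 nM YM155 for 6 h and 2 of untreated cells, all of the same line, measured as total RNA on Affymetrix arrays. YM155 is a synthetic compound that became known for lowering survivin expression. No separate cultures are named in the labels, so every p-value reflects array-to-array spread that could be purely technical. B1 and B2 stand in the YM155 titles as codes of unstated meaning, and whether these mark separate cultures or batches is not known. A protocol field in the labels names cisplatin instead, whereas the treatment labels and series title name YM155 and were followed.

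Mitotic entry is set by CDK1 bound to A-type and B-type cyclins. WEE1 and PKMYT1 hold this kinase inactive by phosphorylation, and CDC25 phosphatases release it. Exit follows when the APC/C, switched on by CDC20 and then by FZR1, marks cyclins and securin for destruction, which frees separase to split the chromatids. Many of these genes are transcribed late in the cell cycle under FOXM1, MYBL2 and the MuvB complex, through a promoter element called the cell cycle genes homology region (CHR, TTTGAA) and nearby CCAAT boxes. In an unsynchronised culture their transcripts report both how many cells are in the G2 and M phases and how much of each transcript such a cell holds. These cannot be told apart in RNA of whole cultures.

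The promoters are shown because most members had lower values in the YM155 arrays and this element is the best known shared feature of such genes. RefSeq windows (GRCh38.p14) of 250 bases before to 50 after the transcript start were found for 41 of the 47 genes, some with several starts. WEE1, PKMYT1, FOXM1, UBE2C, TROAP and RACGAP1 had none. The last 120 bases before the start follow. TTTGAA and CCAAT are in capitals on either strand, so TTCAAA and ATTGG are the same elements read from the other strand. Of a gene with several starts, the stretch with most TTTGAA, and then most CCAAT, is shown. This applied to CDC25C, which had 4 windows, and its other windows held TTTGAA after the start or not at all. The first 5 genes had some of the lowest differences between YM155 and untreated arrays, and KPNA2 and MYBL2 had positive ones. They are examples chosen by hand, and other members differ from them. NCAPD2, at −0.89 lower than ESPL1 and DEPDC1, has TTTGAA only beyond the 120 bases shown. Of the positive genes not shown, FZR1 also has it only beyond them. ANLN has it nearer to the start than CDC25C, ESPL1 and DEPDC1 do. Whether the place of the element goes with the differences was not tested.
CDC25C: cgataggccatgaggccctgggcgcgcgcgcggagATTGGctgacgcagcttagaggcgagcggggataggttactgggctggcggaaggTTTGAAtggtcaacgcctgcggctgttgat
ESPL1: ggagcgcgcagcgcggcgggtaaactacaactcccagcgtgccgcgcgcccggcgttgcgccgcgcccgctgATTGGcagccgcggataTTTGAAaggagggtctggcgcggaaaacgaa
CKAP2L: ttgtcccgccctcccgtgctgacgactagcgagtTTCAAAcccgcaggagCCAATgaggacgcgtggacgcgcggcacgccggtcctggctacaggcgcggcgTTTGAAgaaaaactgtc
DEPDC1: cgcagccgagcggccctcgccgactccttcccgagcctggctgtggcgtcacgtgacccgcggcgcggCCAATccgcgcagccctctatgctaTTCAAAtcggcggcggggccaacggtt
PSRC1: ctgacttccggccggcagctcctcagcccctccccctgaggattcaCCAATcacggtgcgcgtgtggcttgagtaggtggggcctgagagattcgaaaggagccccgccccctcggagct
KPNA2: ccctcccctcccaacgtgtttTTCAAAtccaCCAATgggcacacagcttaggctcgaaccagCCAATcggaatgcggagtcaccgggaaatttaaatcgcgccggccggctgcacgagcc
MYBL2: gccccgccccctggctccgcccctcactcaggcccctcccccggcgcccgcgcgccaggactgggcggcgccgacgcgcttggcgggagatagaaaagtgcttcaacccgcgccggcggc

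The CDC25C stretch lies at chr5:138331805-138331924, minus strand, that of ESPL1 at chr12:53268179-53268298, plus strand, and that of CKAP2L at chr2:112764610-112764729, minus strand. DEPDC1 was read at chr1:68497083-68497202, minus strand, and PSRC1 at chr1:109283146-109283265, minus strand. The stretch of KPNA2 is chr17:68035615-68035734, plus strand, and that of MYBL2 is chr20:43666994-43667113, plus strand. In CDC25C, ESPL1 and DEPDC1 the TTTGAA element begins 30, 31 and 27 bases before the start, with the nearest CCAAT box 85, 48 and 52 bases before it. CKAP2L carries the element in both orientations. PSRC1 and MYBL2 have no TTTGAA in these letters, and MYBL2 has no CCAAT either. The PSRC1 stretch does hold TTCGAA, left in small letters, a form that was counted only in an alternative.

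Over the whole 300-base windows, 28 of 41 members held TTTGAA in at least 1 window (68.3%), against 18.2% of the 27305 genes with a window. CCAAT was found for 32 members (78.0%), against 39.7% of all genes. Both occurred in the same window for 22 members (53.7%), against 7.26% of all genes. Matches were counted on both strands and separately where they overlapped. TTTGAA stood in 9 of the 12 members that were lower at an unadjusted p under 0.05, in 16 of 25 others with a negative difference and in 3 of 4 with a positive one. These counts are a description of letters and no test was made on them.

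Untreated replicate 2 stood apart from the other arrays over the whole platform. Of the 32768 probe sets past the filter, 5.53% and 6.53% were at least 2-fold apart between it and the YM155 arrays, and 5.16% between it and untreated replicate 1. Between untreated replicate 1 and the YM155 arrays the shares were 2.26% and 2.59%, and the YM155 arrays were nearest to each other, with 0.171%. Results are therefore given against each untreated array as well as against both.

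No mitotic gene passed the test between YM155 and untreated cells. Most nevertheless had lower values in the YM155 arrays, with a median difference of −0.38 log2 over the 47 genes, beside −0.015 over all 14043 genes fitted. Differences are YM155 minus untreated in log2 units with the standard error (SE) of limma, n = 2 arrays each, and for each gene the brightest probe set on average was used. By limma 0 members had an adjusted p under 0.05 (0% of all genes passed), and the lowest adjusted p among them was 0.163. Negative differences were found for 42 of 47 members, against 52.9% of all genes. In 29 members (61.7%) both YM155 arrays lay below both untreated arrays, against 25.6% of all genes, and in 2 they lay above both, against 19.3%. At an unadjusted p under 0.05, 12 members were lower (25.5%), against 7.48% of all genes, and 0 were higher, against 5.23%.

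The size of this shift depended on the untreated array it was taken from. The YM155 mean lay −0.21 log2 in median from untreated replicate 1 and −0.53 from untreated replicate 2. Replicate 2 minus replicate 1 of the untreated arrays gave a median of 0.39. The same medians over all genes were −0.05, 0.0075 and −0.038. Untreated replicate 2 stood above replicate 1 for 36 of 47 members (76.6%), against 44.9% of all genes. The YM155 mean lay below untreated replicate 1 for 36 members (58.2% of all genes) and below untreated replicate 2 for 41 (49% of all genes). Of the 86 probe sets of these genes past the filter, 0 were at least 2-fold apart between the YM155 arrays (0.171% of all). Between the untreated arrays 9 were (5.16% of all). Between untreated replicate 1 and each YM155 array 1 was (2.26% and 2.59% of all). Between untreated replicate 2 and the YM155 arrays the counts were 16 and 23 (5.53% and 6.53% of all).

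Without untreated replicate 1, limma called 12 members lower (25.5%) and 0 higher, against 3.71% and 4.3% of all genes. Those 12 were CCNA2, CDC20, CDC25C, CKAP2L, DEPDC1, DLGAP5, ESPL1, FBXO5, NEK2, PLK1, PSRC1 and PTTG1, with adjusted p between 0.0407 and 0.0485. That fit assumes that a lone untreated array varies like the YM155 arrays, and the same setting over all probe sets called 0 of the 86 probe sets of these genes. At an unadjusted p under 0.05 it had 29 members lower and 1 higher, against 14.6% and 17% of all genes. Without untreated replicate 2 there were 0 calls (0% of all genes), and 14 members were lower and 3 higher at that p, against 14.2% and 7.63% of all genes. Leaving out a YM155 array also gave 0 calls, with 4 members lower at that p without replicate 1 (2.47% of all genes) and 1 without replicate 2 (1.87% of all genes).

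**Figure D1:**
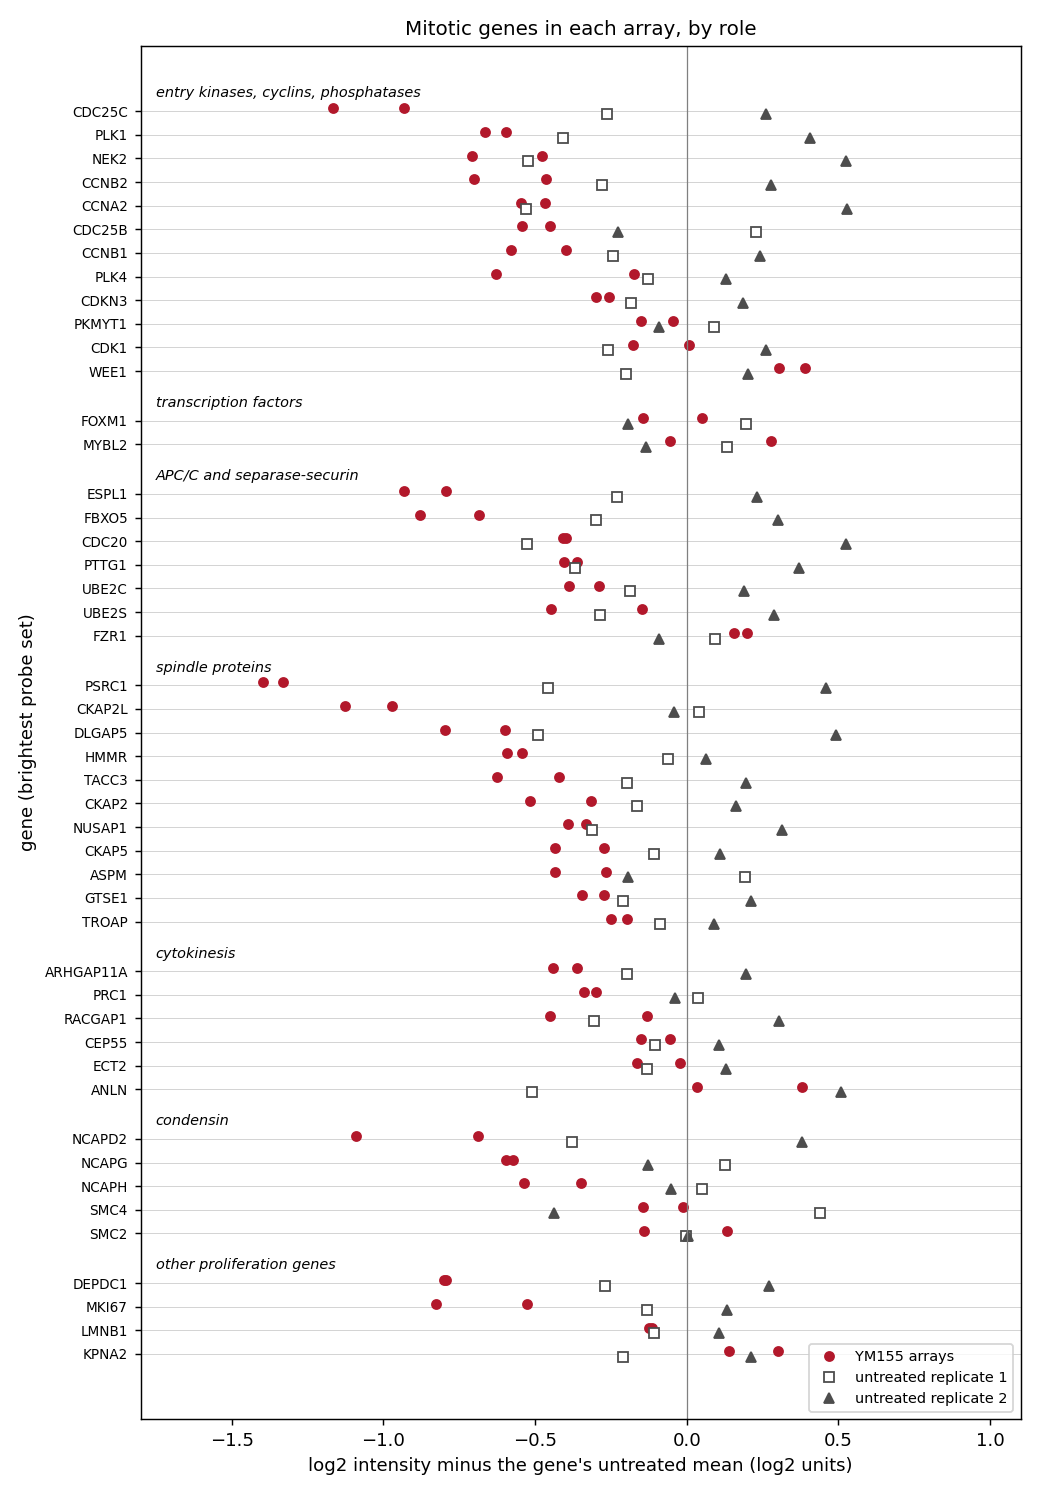
Log2 intensity of each mitotic gene in each array minus the mean of its untreated arrays, grouped by role (circles, YM155 arrays; open squares, untreated replicate 1; triangles, untreated replicate 2). The brightest probe set of each gene is drawn. In these, all 11 spindle genes have both YM155 arrays left of both untreated arrays. Untreated replicate 2 stands right of replicate 1 for 36 of the 47 genes.

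Other features of the arrays were set beside this. The 3′ to 5′ signal ratio of the ACTB control probe sets, a measure of RNA integrity, was 4.28 and 7.74 in YM155 arrays and 6.61 and 4.54 in untreated arrays, so the groups overlapped. With that ratio as a covariate the median difference was −0.36. The same ratio of the GAPDH control probe sets was 1.02 and 1.16 in YM155 arrays and 1.03 and 1.03 in untreated arrays. Of the squamous markers, 5 of 8 had a probe set of their own and all 5 passed the filter. Their summed intensity was 16513 and 17350 in YM155 arrays and 11499 and 13229 in untreated arrays. This marker sum was thus higher in both YM155 arrays. A sum of linear values is weighted to its brightest marker, here SFN. SFN read 13.15 and 13.19 log2 in YM155 arrays and 12.25 and 12.74 in untreated arrays. PERP read 12.05 and 12.21 in YM155 arrays and 12.03 and 11.97 in untreated arrays. KRT5, KRT14 and DSG3 were also higher in both YM155 arrays. All 5 thus had YM155 arrays above both untreated arrays, where 19.3% of all genes had. Fibroblast markers (2 of 5 past the filter) summed to 98.7 and 112 in YM155 and 111 and 99.2 in untreated arrays. Leukocyte markers (1 of the 3 with a probe set past the filter) summed to 22.8 and 26.1 in YM155 and 20.1 and 23.8 in untreated arrays, with PTPRC and LYZ below the filter. The endothelial sum (2 of 3 past the filter) was 43.6 and 40.9 in YM155 and 45.2 and 39.5 in untreated arrays. Whether these marker differences bear on the mitotic values was not tested.

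Among the kinases, cyclins and phosphatases of mitotic entry, 11 of 12 differences were negative, with a median of −0.49 log2, and 7 of the 12 genes had YM155 arrays below both untreated arrays, against 52.9% and 25.6% of all genes. The median was −0.21 log2 from untreated replicate 1 and −0.63 from replicate 2. At an unadjusted p under 0.05 by limma, 1 of the 12 was lower, against 7.48% of all genes. This was CDC25C, a phosphatase that activates CDK1 at mitotic entry. It read 6.28 and 6.05 log2 in YM155 arrays, against 6.95 and 7.48 in untreated arrays. The groups did not overlap, and the difference of −1.05 ± 0.22 (SE) corresponds to a 2.07-fold lower level (limma adjusted p = 0.233). Its gap was −0.79 from untreated replicate 1 and −1.31 from replicate 2, so both untreated arrays were higher. A dimmer probe set of CDC25C gave −0.31. The related phosphatase gene CDC25B stood at −0.50 ± 0.19, with 9.12 and 9.03 log2 in YM155 arrays and 9.80 and 9.34 in untreated arrays, and for it untreated replicate 1 was the higher one.

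The B-type cyclin genes had YM155 arrays below both untreated arrays without reaching an unadjusted p under 0.05. CCNB1 read 10.45 and 10.27 log2 in YM155 arrays and 10.61 and 11.09 in untreated arrays, a difference of −0.49 ± 0.21. CCNB2 read 9.72 and 9.49 in YM155 arrays and 9.91 and 10.47 in untreated arrays, a difference of −0.58 ± 0.23. For each the step from untreated replicate 1, −0.25 and −0.73 from replicates 1 and 2 for CCNB1 and −0.30 and −0.86 for CCNB2, was the smaller. The other probe set of CCNB1 gave −0.037. A dim second probe set of CCNB2 had the opposite sign, 0.047, at 4.65 and 4.56 log2 in YM155 arrays and 4.65 and 4.46 in untreated arrays, where the groups overlapped.

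CCNA2, the A-type cyclin of S phase and mitotic entry, and NEK2, a centrosome kinase, had lower values mainly against untreated replicate 2. CCNA2 read 7.87 and 7.95 log2 in YM155 arrays and 7.88 and 8.94 in untreated arrays. The YM155 mean was 0.024 from untreated replicate 1 and −1.03 from replicate 2. NEK2 read 8.07 and 8.30 log2 in YM155 arrays and 8.26 and 9.31 in untreated arrays, and its second probe set gave −0.93 without overlap, with −0.48 from replicate 1 and −1.38 from replicate 2. The differences over both untreated arrays were −0.51 ± 0.37 for CCNA2 and −0.59 ± 0.37 for NEK2. A second CCNA2 probe set read 7.12 and 6.95 in YM155 arrays and 7.44 and 8.63 in untreated arrays, so there the groups did not overlap.

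PLK1, a kinase of mitotic entry and spindle assembly, read 6.82 and 6.89 log2 in YM155 arrays and 7.08 and 7.90 in untreated arrays, without overlap, a difference of −0.63 ± 0.29. Most of it came from untreated replicate 2, since the gap was −0.22 from replicate 1 and −1.04 from replicate 2. PLK4, the kinase of centriole duplication, stood at −0.40 ± 0.21, and CDKN3, a phosphatase that acts on cyclin-dependent kinases, at −0.28 ± 0.17, both without overlap of the arrays. PKMYT1 stood at −0.098 ± 0.14 with overlap.

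CDK1 itself was close to 0 in its brightest probe set, −0.086 ± 0.22, with 10.35 and 10.54 log2 in YM155 arrays and 10.27 and 10.79 in untreated arrays, and the groups overlapped. Its other probe sets gave −0.13, −0.69 and −0.80. The lowest of these read 8.94 and 8.36 in YM155 arrays and 8.92 and 9.98 in untreated arrays, so one YM155 array lay just above untreated replicate 1. The probe sets of CDK1 thus had one sign and sizes between −0.80 and −0.086.

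WEE1, the kinase that inhibits CDK1, had the highest difference of all 47 genes. It read 8.92 and 9.01 log2 in YM155 arrays and 8.42 and 8.82 in untreated arrays, so both YM155 arrays lay above both untreated arrays. The difference of 0.35 ± 0.18 did not pass (limma adjusted p = 0.515), and it was 0.55 from untreated replicate 1 and 0.15 from replicate 2. The second probe set of WEE1 gave 0.12.

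The transcription factor genes of this program had differences near 0. FOXM1 read 9.22 and 9.03 log2 in YM155 arrays and 9.37 and 8.98 in untreated arrays, a difference of −0.047 ± 0.19. MYBL2 read 8.03 and 7.69 in YM155 arrays and 7.88 and 7.62 in untreated arrays, a difference of 0.11 ± 0.18. The median of the pair was −0.13 log2 from untreated replicate 1 and 0.20 from replicate 2. In both genes the groups overlapped and untreated replicate 1 was higher than replicate 2.

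Of the 7 genes around the APC/C, 6 had negative differences, with a median of −0.38 log2, and 3 had YM155 arrays below both untreated arrays, against 52.9% and 25.6% of all genes. The group lay lower mainly against 1 untreated array, with a median of −0.012 log2 from untreated replicate 1 and −0.75 from replicate 2. ESPL1, which encodes separase, read 7.82 and 7.68 log2 in YM155 arrays and 8.38 and 8.84 in untreated arrays. Both untreated arrays were higher, and the difference was −0.86 ± 0.20, a 1.82-fold lower level (limma adjusted p = 0.244). Its second probe set gave −0.97. FBXO5, which encodes the APC/C inhibitor EMI1, read 7.87 and 7.68 in YM155 arrays and 8.25 and 8.85 in untreated arrays. These groups did not overlap either, and the difference was −0.78 ± 0.24 (limma adjusted p = 0.319), with −0.37 in the other probe set.

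The mitotic APC/C activator CDC20 was lower against untreated replicate 2 alone. CDC20 read 9.96 and 9.96 log2 in YM155 arrays and 9.84 and 10.89 in untreated arrays, so the YM155 mean was 0.12 from replicate 1 and −0.93 from replicate 2. PTTG1, which encodes securin, read 11.56 and 11.61 in YM155 arrays and 11.60 and 12.34 in untreated arrays, with gaps of −0.012 and −0.75 from replicates 1 and 2. For CDC20 and PTTG1 the groups overlapped, and the differences were −0.40 ± 0.36 and −0.38 ± 0.27. The ubiquitin-conjugating enzymes of the APC/C stood at −0.34 ± 0.18 (UBE2C, arrays not overlapping) and −0.30 ± 0.24 (UBE2S, arrays overlapping).

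FZR1, the activator of the APC/C in late mitosis and G1, had YM155 arrays above both untreated arrays in its brightest probe set. It read 6.77 and 6.73 log2 in YM155 arrays and 6.67 and 6.48 in untreated arrays, a difference of 0.18 ± 0.14 (limma adjusted p = 0.656). Its 4 probe sets went both ways. The others gave 0.018, −0.043 and −0.47, and the last read 5.14 and 4.75 in YM155 arrays and 5.09 and 5.74 in untreated arrays, with overlap.

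In their brightest probe sets, all 11 genes of spindle and microtubule proteins had negative differences and YM155 arrays below both untreated arrays. These shares were 52.9% and 25.6% over all genes. The median of the 11 genes was −0.42 log2. The median was −0.25 log2 from untreated replicate 1 and −0.63 from replicate 2. PSRC1, which encodes a spindle protein that controls microtubule dynamics, read 7.17 and 7.24 log2 in YM155 arrays and 8.11 and 9.03 in untreated arrays. The difference of −1.36 ± 0.32, a 2.57-fold lower level, was the lowest of the 47 genes (limma adjusted p = 0.248), and 47 of the 14043 genes fitted had a lower one. The gap was −0.90 from untreated replicate 1 and −1.82 from replicate 2, so its size depended on the untreated array.

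CKAP2L, which encodes a spindle protein also called radmis, was one of 3 members, with PSRC1 and CDC25C, at or below −1 log2, where 1.15% of all genes lay. It read 7.39 and 7.24 log2 in YM155 arrays and 8.41 and 8.32 in untreated arrays. The difference was −1.05 ± 0.13, a 2.07-fold lower level (limma adjusted p = 0.163). Its gaps of −1.09 and −1.01 from untreated replicates 1 and 2 were nearly equal. Its relative CKAP2 stood at −0.42 ± 0.17, with 8.45 and 8.66 in YM155 arrays and 8.81 and 9.13 in untreated arrays, so the groups did not overlap.

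HMMR, a hyaluronan receptor that also acts at spindle poles, read 9.00 and 9.05 log2 in YM155 arrays and 9.52 and 9.65 in untreated arrays. Its gaps from untreated replicates 1 and 2 were −0.50 and −0.63, and the difference was −0.57 ± 0.13 (limma adjusted p = 0.242). The second HMMR probe set gave −0.82. TACC3, a microtubule protein of the spindle, read 7.15 and 6.94 in YM155 arrays and 7.37 and 7.76 in untreated arrays, a difference of −0.52 ± 0.19 (limma adjusted p = 0.368), again without overlap.

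The remaining spindle genes were lower by less or less evenly. DLGAP5, a kinetochore fibre protein, stood at −0.70 ± 0.35, with −0.20 from untreated replicate 1 and −1.19 from replicate 2. NUSAP1, a microtubule bundling protein, stood at −0.36 ± 0.24, CKAP5, a microtubule polymerase, at −0.35 ± 0.15, and GTSE1, a microtubule and p53 regulator, at −0.31 ± 0.18. TROAP stood at −0.22 ± 0.14 and ASPM, a spindle pole protein, at −0.35 ± 0.18. Probe sets of ASPM ranged from −0.99 to −0.24, and those of TROAP from −0.59 to −0.22. Dimmer probe sets of NUSAP1 (−0.55) and GTSE1 (−0.42 and −0.22) had overlapping groups. Other dimmer ones of GTSE1 (−0.48 each) did not overlap.

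The 6 cytokinesis genes had a median difference of −0.20 log2, and 2 of 6 had YM155 arrays below both untreated arrays, against 25.6% of all genes. The direction of that median turned with the untreated array, at 0.0081 log2 from untreated replicate 1 and −0.29 from replicate 2. PRC1, which bundles the microtubules of the central spindle, read 9.57 and 9.53 log2 in YM155 arrays and 9.90 and 9.83 in untreated arrays. Both untreated arrays were higher by nearly the same amount, and the difference was −0.32 ± 0.12 (limma adjusted p = 0.405). ARHGAP11A, a RHOA regulator, stood at −0.40 ± 0.18, also without overlap. The centralspindlin subunit gene RACGAP1 (−0.29 ± 0.26), its partner ECT2 (−0.093 ± 0.16), which activates RHOA at the cell equator, and the abscission gene CEP55 (−0.10 ± 0.14) overlapped between the groups. A second ECT2 probe set gave −0.73 without overlap.

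ANLN, which encodes the contractile ring scaffold anillin, went opposite ways in its probe sets. The brightest one read 9.70 and 10.04 log2 in YM155 arrays and 9.16 and 10.18 in untreated arrays, a difference of 0.21 ± 0.37. The other read 7.86 and 7.32 in YM155 arrays and 7.54 and 8.77 in untreated arrays, a difference of −0.56. In these probe sets untreated replicate 2 exceeded replicate 1 by 1.02 and 1.23, and the groups overlapped.

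The 5 condensin genes had a median difference of −0.44 log2, which was −0.51 log2 from untreated replicate 1 and −0.39 from replicate 2. The subunits particular to condensin I, NCAPG, NCAPD2 and NCAPH, each had an unadjusted p under 0.05, while the SMC2 and SMC4 core, which condensin II shares, did not. NCAPG read 8.32 and 8.30 log2 in YM155 arrays and 9.02 and 8.77 in untreated arrays, a difference of −0.58 ± 0.15 (limma adjusted p = 0.266). NCAPH read 7.11 and 6.93 in YM155 arrays and 7.51 and 7.41 in untreated arrays, a difference of −0.44 ± 0.14 (limma adjusted p = 0.329). NCAPD2 read 7.99 and 7.59 in YM155 arrays and 8.30 and 9.06 in untreated arrays, a difference of −0.89 ± 0.31 (limma adjusted p = 0.353). None of these overlapped between the groups, and untreated replicate 1 was the higher untreated array for NCAPG and NCAPH but the lower one for NCAPD2. A second probe set of NCAPG gave −0.55.

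SMC2 read 8.55 and 8.27 log2 in YM155 arrays and 8.41 and 8.42 in untreated arrays, a difference of −0.0035 ± 0.15. SMC4 read 10.01 and 9.88 in YM155 arrays and 10.46 and 9.58 in untreated arrays, a difference of −0.08 ± 0.31, so for SMC2 and SMC4 the groups overlapped. Other SMC4 probe sets gave −0.47, without overlap, and −0.72, with overlap. Whether the condensin I subunits differed from the core was not tested.

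Of the remaining proliferation genes, MKI67, the Ki-67 antigen that coats mitotic chromosomes, read 9.29 and 8.99 log2 in YM155 arrays and 9.68 and 9.95 in untreated arrays. Both untreated arrays were higher, and the difference was −0.68 ± 0.18, a 1.6-fold lower level (limma adjusted p = 0.273). Its 4 probe sets lay between −0.68 and −0.32. DEPDC1 read 7.95 and 7.94 in YM155 arrays and 8.47 and 9.01 in untreated arrays, a difference of −0.80 ± 0.21 (limma adjusted p = 0.282), and its 4 probe sets lay between −0.99 and −0.45. LMNB1, a lamin of the nuclear envelope, stood at −0.12 ± 0.14 without overlap. KPNA2, a nuclear import receptor, read 10.66 and 10.82 in YM155 arrays and 10.31 and 10.73 in untreated arrays, a difference of 0.22 ± 0.19 with overlap, and its second probe set gave 0.49.

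At a line of 0.5 log2, chosen after the values were seen, 8 members (17%) lay at least that far below each untreated array, against 3.34% of all genes. These were CDC25C, ESPL1, CKAP2L, PSRC1, HMMR, NCAPD2, MKI67 and DEPDC1. In their brightest probe sets CCNA2, CDC20, NEK2 and PTTG1 formed the opposite case, with gaps of −0.068 to 0.12 log2 from untreated replicate 1 and of −1.12 to −0.75 from replicate 2. Among the 29 genes whose YM155 arrays lay below both untreated arrays, CDC25B, CKAP2L, ASPM, NCAPG, NCAPH and PRC1 were lower by more against untreated replicate 1 than against replicate 2.

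**Figure D2:**
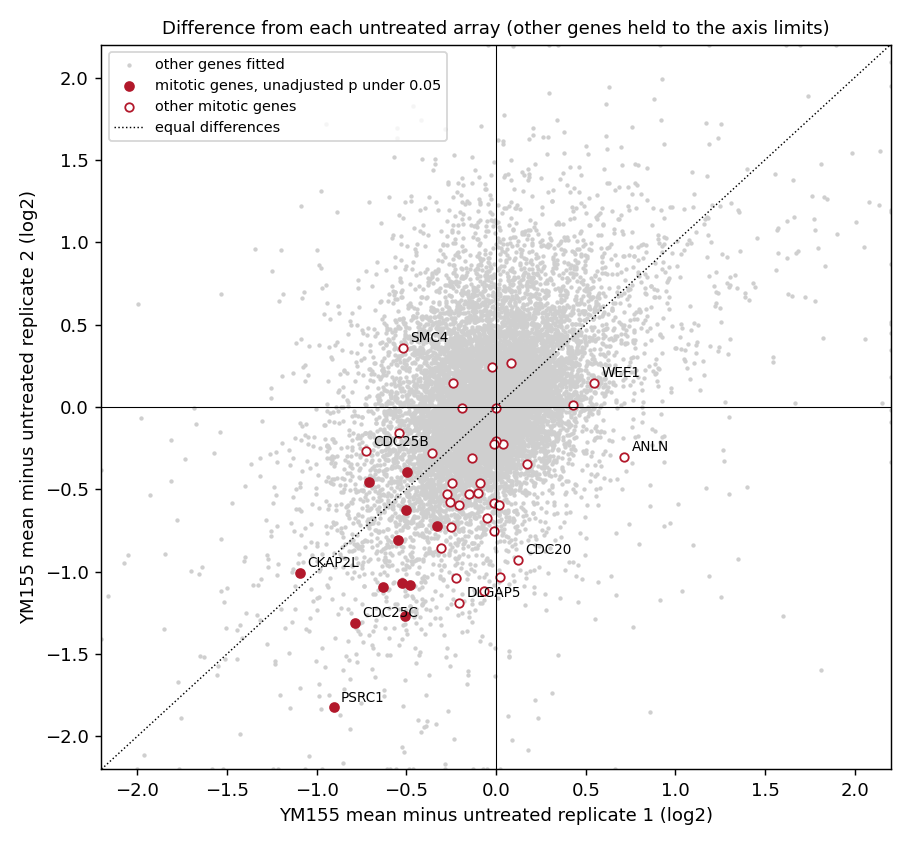
YM155 mean minus untreated replicate 1 (horizontal) and minus untreated replicate 2 (vertical), in log2, for each gene; filled red points are mitotic genes with an unadjusted p under 0.05, open red points the other mitotic genes and grey points all other genes fitted. PSRC1, CDC25C and CKAP2L lie low on both axes, whereas CDC20 lies near 0 on the horizontal axis and at −0.93 on the vertical one.

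When all probe sets were fitted one by one, 0 of the 86 probe sets of these genes passed the adjusted threshold (0% of all 32768 passed by limma). At an unadjusted p under 0.05, 22 were lower (25.6%), against 6.06% of all probe sets, and 0 were higher, against 5.03%. The YM155 arrays lay below both untreated arrays in 52 (60.5%), against 23.9% of all, and above both in 3, against 19.4%. Negative differences were found for 77 of the 86, against 52.8% of all. The YM155 mean lay below untreated replicate 1 in 67 (55% of all) and below untreated replicate 2 in 76 (50.9% of all). A difference at or below −1 log2 was found for 4 (1.14% of all), and 14 lay at least 0.5 below each untreated array (2.97% of all). Probe sets of the same gene share transcripts and are not independent. Among members with several probe sets past the filter, ANLN, CCNB2 and FZR1 had both signs. A further 6 probe sets of these genes lay below the filter of 3.32 log2 and were not fitted.

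**Figure D3:**
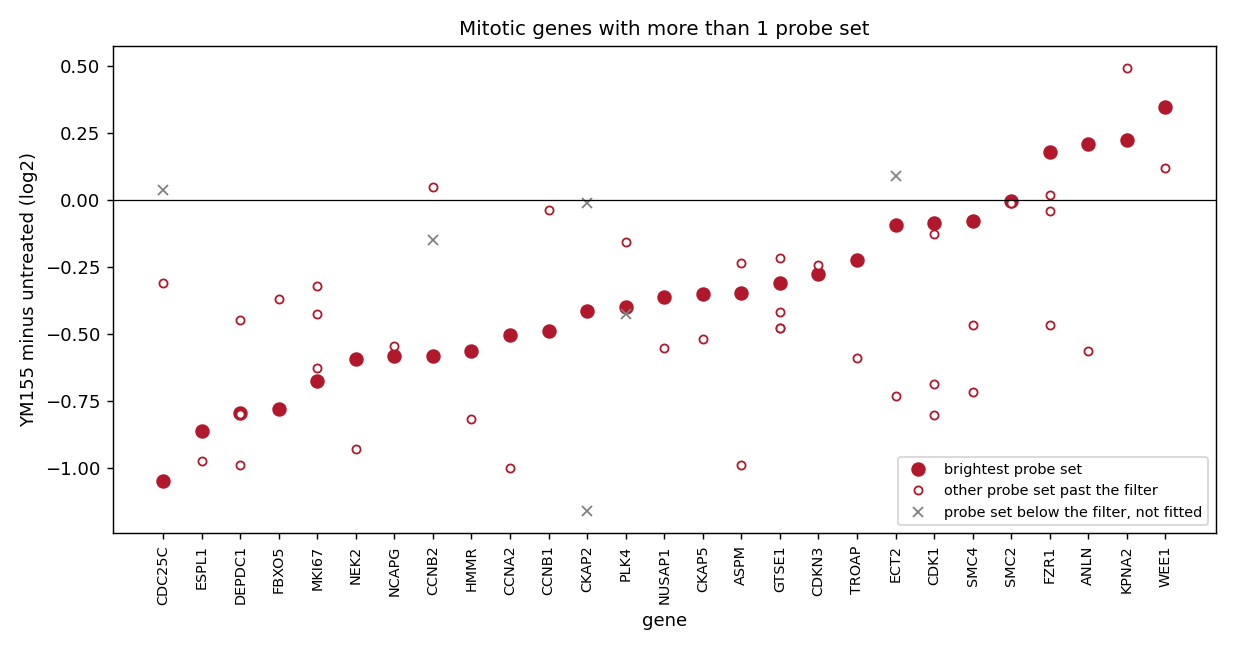
Difference of YM155 minus untreated in log2 for every probe set of the mitotic genes with more than 1 probe set, ordered by the brightest one (large filled points; open points, other probe sets past the filter; crosses, probe sets below the filter). CDK1 spreads from −0.80 to −0.086, and ANLN, CCNB2 and FZR1 have fitted probe sets on both sides of 0.

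Related genes were described by lists of the complexes and pathways around the members, with the same fit, and 0 genes of any list passed by limma. YM155 arrays lay below both untreated arrays for 5 of 6 Aurora kinase and chromosomal passenger genes (median difference −0.57 log2), 9 of 12 mitotic kinesins (median −0.51) and 15 of 28 kinetochore and spindle checkpoint genes (median −0.33), beside 25.6% of all genes. At an unadjusted p under 0.05 the counts lower were 3, 5 and 9, against 7.48% of all genes, and 0 were higher in each, against 5.23%. Their medians depended on the untreated array. The median of the Aurora kinase and passenger list was −0.34 log2 from untreated replicate 1 and −0.79 from replicate 2. The kinesin median was −0.34 log2 from untreated replicate 1 and −0.63 from replicate 2. The kinetochore median was −0.22 log2 from untreated replicate 1 and −0.40 from replicate 2. The spindle kinase gene AURKA stood at −0.88 ± 0.23, its activator TPX2 at −0.73 ± 0.22 and the chromosomal passenger kinase gene AURKB at −0.66 ± 0.20. Among kinesins, KIF18A stood at −0.85 ± 0.13, KIF2C at −0.87 ± 0.29 and KIF20A at −1.17 ± 0.49. Of the kinetochore genes NDC80 stood at −1.12 ± 0.14, HJURP at −1.17 ± 0.52 and MAD2L1 at −1.04 ± 0.54. Gaps from untreated replicates 1 and 2 were −0.78 and −0.92 for KIF18A and −1.22 and −1.02 for NDC80. They were less even for KIF2C (−0.46 and −1.28), KIF20A (−0.43 and −1.90) and HJURP (−0.40 and −1.94). MAD2L1 read 8.62 and 7.17 log2 in YM155 arrays and 8.60 and 9.28 in untreated arrays, so its groups overlapped.

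Medians of the other lists lay nearer to 0, and their counts are to be read against 25.6% of all genes below and 19.3% above both untreated arrays. Against single untreated arrays the medians changed sign for the APC/C core (−0.14 log2 from untreated replicate 1 and 0.14 from replicate 2), condensin II and cohesin, septin, RHOA and ESCRT, exit phosphatase and DNA replication lists. Of 13 APC/C core subunits fitted, 2 had YM155 arrays below both untreated arrays and 0 above, with a median of 0.042 log2 and CDC27 lowest at −0.43 ± 0.17. Mitotic exit phosphatases and their regulators, 12 fitted, had a median of 0.085, with 3 below and 5 above. There the phosphatase subunit gene PPP1CB stood at 0.62 ± 0.21 and MASTL, the kinase that restrains the phosphatase PP2A in mitosis, at −0.41 ± 0.13. Condensin II and cohesin genes had a median of −0.10 over 12, with 2 below and 1 above, and the cohesin core gene SMC3 at −0.54 ± 0.13. Septin, RHOA and ESCRT genes had a median of 0.0089 over 10, with the abscission ATPase gene VPS4B at 0.47 ± 0.13. Subunits of MuvB, with E2F and pocket proteins, had a median of −0.13 over 10, and its subunit gene LIN37, at 6.62 and 6.70 log2 in YM155 and 7.43 and 7.35 in untreated arrays, stood at −0.73 ± 0.13.

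DNA replication genes, which are transcribed earlier in the cycle, had a median of −0.012 log2 over 33, with 5 below and 8 above both untreated arrays, against 25.6% and 19.3% of all genes. At an unadjusted p under 0.05, 2 of them were lower and 2 higher, where 7.48% and 5.23% of all genes were, so both shares lay near the background. Of the list, the cyclin genes CCNE2 (1.42 ± 0.23) and CCNE1 (0.59 ± 0.15) stood highest and RFC4 (−0.63 ± 0.14) lowest. The difference between these lists and the 47 genes was not tested.

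**Figure D4:**
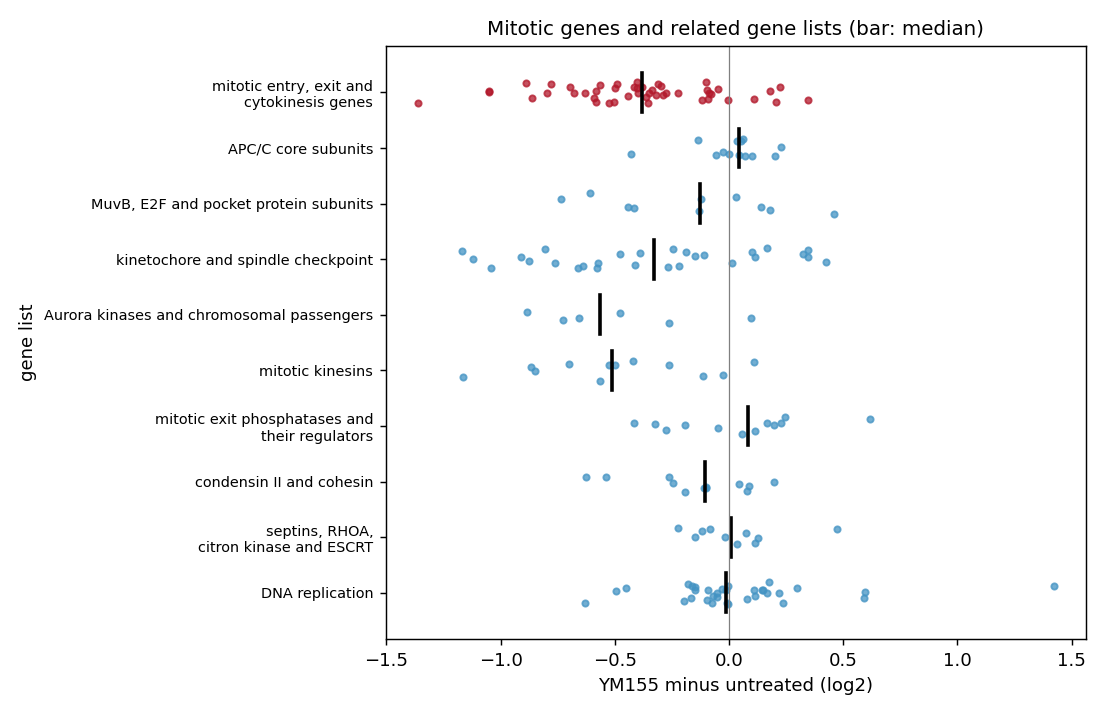
Difference of YM155 minus untreated in log2 for each of the 47 mitotic genes (top row, red) and for genes of related lists (blue), with a black bar at each median. The medians of the mitotic genes (−0.38), the Aurora kinase and passenger list (−0.57), kinesins (−0.51) and kinetochore genes (−0.33) lie left of 0. The other medians lie between −0.13 and 0.085.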

How the data were processed

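Total RNA of KYSE410 cells was measured on 4 Affymetrix arrays, 2 YM155 and 2 untreated, grouped by their titles. The authors deposited linear intensity values, and the submitters' processing notes name RMA (robust multi-array averaging) without settings. Values ran from 2.42 to 15214 with array medians of 16.0 to 16.3. RMA sets the arrays to a common scale, so a change in total RNA is not seen. Log2 of the deposited values was taken, control probe sets were removed, and only probe sets with a mean log2 at or above the 40th percentile of all were kept. Symbols came from the platform annotation, and probe sets with several symbols were not used, among them 7 that name a member. YM155 was compared with untreated in limma 3.58.1 (R 4.3.3, two-sided, without covariates), and p-values were adjusted by Benjamini-Hochberg across 14043 genes or 32768 probe sets. The number of arrays limits the precision: 2 residual degrees of freedom. The fit was tested on simulated data. Alternatives covered the filter, the choice of probe sets, scaling, the variance model, array weights, the ACTB ratio, a replicate block, each array left out and the promoter window. No build is given for the probe sets, and promoter windows came from RefSeq tables. The members and lists were chosen with earlier results of these data known. All members could be named, and up to 3 genes of each related list by absolute difference. Per-array values were due for members at an unadjusted p under 0.05, the 3 highest and those whose probe sets differ in sign, and further ones were chosen after their values were seen.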

Additional observations from a re-analysis of the deposited data

How the results depend on the processing

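Of the 47 genes, 35 kept the sign of their difference in every alternative that fitted them and 12 changed it at least once. There were 14 alternatives, and the one without _x_at or _s_at probe sets fitted 33 of the genes. Those on the filter, the variance model, the replicate block and the array weights left the differences of these genes unchanged. They could therefore not change a sign. With each array left out in turn, calls among the members ran from 0 to 12, members lower at an unadjusted p under 0.05 from 1 to 29 (1.87% to 14.6% of all genes) and higher from 0 to 3 (1.3% to 17%), their probe sets lower at that p from 2 to 52 (1.37% to 13.6% of all probe sets), and the median difference from −0.53 to −0.21. Without suffixed probe sets, 9 of 40 probe sets were lower at an unadjusted p under 0.05 (5.98% of all), from fewer probe sets than the 86 fitted otherwise. Signs changed for FZR1 (−0.079 with the mean of its probe sets), ANLN (−0.18 with that mean and −0.56 without suffixed probe sets) and SMC2 (0.0084 with a second quantile normalization, 0.0048 with median centring and 0.013 with the ACTB ratio as a covariate). Over the arrays left out, differences spanned 0 for CDK1 (−0.35 to 0.17), CCNA2 (−1.03 to 0.024), FOXM1 (−0.24 to 0.15), MYBL2 (−0.057 to 0.28), CDC20 (−0.93 to 0.12), ECT2 (−0.22 to 0.037), RACGAP1 (−0.60 to 0.014), ANLN (−0.30 to 0.72), CEP55 (−0.21 to 0.0019), SMC2 (−0.14 to 0.13) and SMC4 (−0.52 to 0.36). The cause was not tested. The replicate block gave 0 calls and 11 members lower at an unadjusted p under 0.05 (5.98% of all genes), against 12 without it, and the correlation of replicate deviations between the groups was 0.00036 over 14043 genes and 0.33 over the 47 genes. The labels tie the numbers to no shared source and there are only 2 of them, so they were not taken as pairs. Array weights gave 15 such members (7.45% of all genes) and no filter 14 (6.21%). Members with TTTGAA numbered 23 in windows of 150 bases before the start and 30 when TTCGAA was counted too. Arrays carried no detection calls here, so dim signals are not shown to exceed background.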
